A study of Mus musculus with 2 samples.

Results

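The cells described here are tumour endothelial cells (ECs) with high levels of Esm1, Igfbp3 and Apln. They were chosen by a score, the mean of the deposited natural log values of Ramp3, Esm1, Igfbp3, Apln, Mfap3l and Antxr1 in each cell, and the 386 ECs with the highest score of 3857 in all were taken. The selected ECs comprised 289 of 2517 ECs in the PBS library, or 11.5% (95% exact binomial interval 10.3 to 12.8), and 97 of 1340 ECs in the cGAMP library, or 7.24% (5.91 to 8.76). Because the cells were selected on their own RNA, every difference between them and the other ECs is a description and no test was made of it.

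The ECs were sorted as CD31+ cells from implanted Lewis lung carcinoma (LLC) tumours of adult C57BL/6 mice, male and of the J substrain per the methods, and profiled by droplet-based single-cell RNA-seq. LLC is a mouse lung carcinoma line that grows in immunocompetent C57BL/6 mice, and cGAMP, a cyclic dinucleotide given in the methods as the 3′3′ isomer, is an agonist of STING. In 1 library the tumour had been injected with PBS, the vehicle, and in the other with cGAMP, each from 1 mouse, and the labels give no genetic change in either. The study's text gives differing times of sampling after injection, and its methods and labels name different versions of the droplet kit. With 1 mouse per condition, mouse, library and treatment cannot be told apart, and the intervals below cover counting error only. Levels are unique molecular identifiers (UMIs) of a gene summed over the cells of a group, as CPM, that is, scaled to the same total of UMIs in each group of cells, and ratios are given on the log2 scale.

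The score takes up genes that are known from growing vessel fronts. Tip cells lead a sprout, follow vascular endothelial growth factor and secrete Esm1, a proteoglycan, and Apln, the peptide ligand of the receptor Aplnr. Stalk and venous ECs behind them carry adhesion molecules such as Selp and Icam1 through which leucocytes leave the blood. Hypoxia raises many tip cell genes through hypoxia-inducible factors, and STING activation in a tumour leads to type I interferon and the interferon-stimulated genes.

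In all, 92081146 UMIs came from the PBS library and 63366746 from the cGAMP library. Median depth was 35927 UMIs in selected and 29261 in other PBS-treated ECs, and 41601 and 41168 in cGAMP-treated ECs. The medians of mitochondrial UMIs were 4.33% and 4.51% under PBS and 2.90% and 2.86% under cGAMP. Only 1 cell barcode occurred in both libraries. Pan-endothelial genes were at like levels in selected and other ECs, and none of the 12 listed differed 2-fold in both libraries. Pecam1 stood at 893 CPM in selected and 952 CPM in other PBS-treated ECs, and at 752 and 830 CPM under cGAMP. Markers of other cells were at low levels in the selected ECs. The 9 leucocyte genes in the files summed to 13.4 CPM under PBS and 24.7 CPM under cGAMP, and Ptprc, the pan-leucocyte marker, was at 0 in selected PBS-treated ECs. Of these genes Lyz2, the lysozyme of myeloid cells, had a UMI in 14.8% of selected and 13.6% of other PBS-treated ECs and in 38.9% and 38.7% of cGAMP-treated ECs, and after thinning each cell to 5000 UMIs in 1.76%, 2.22%, 6.32% and 5.19%. These are shares of a gene that ECs should lack, against which other shares of cells with a UMI can be read. The 12 mural cell and fibroblast genes summed to 20.2 and 23.7 CPM, and the 5 epithelial genes to 5.95 and 1.58 CPM, with Epcam, Krt18 and Krt19 at 0 under cGAMP. Haemoglobin RNA was present, and 1 selected cGAMP-treated cell held 4338 of the 4345 erythroid UMIs of its group while 1 selected PBS-treated cell held 1214 of 1223.

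**Figure D1:**
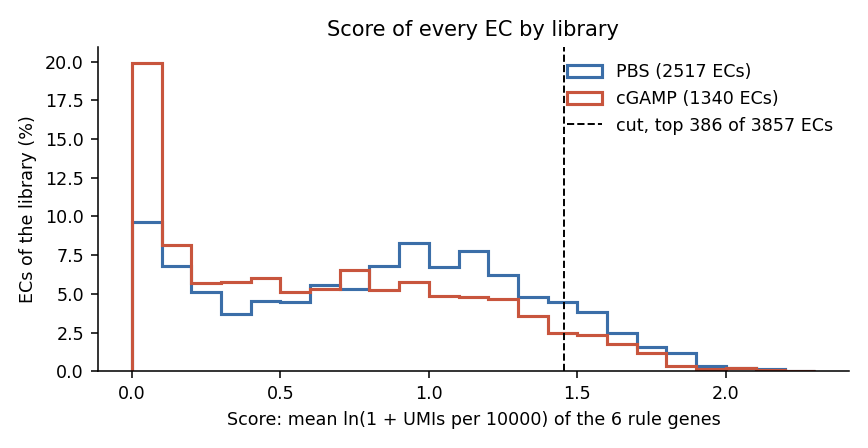
Distribution of the selection score, the mean ln(1 + UMIs per 10000) of the 6 rule genes, as the percentage of each library's ECs per bin of score. The dashed line is the cut that takes the top 386 of 3857 ECs, and in both libraries the distribution passes the cut without a gap.

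The selected ECs formed the upper end of a continuous score, not a separate group. The 5 selected ECs nearest the cut scored 1.4563 to 1.4583 and the 5 nearest ECs outside it 1.4517 to 1.4557. Scores within the selection reached 2.17, with a median of 1.61 in both libraries. Few ECs held all 6 rule genes. At least 5 of the 6 were found in 73.0% of selected and 17.8% of other PBS-treated ECs, and in 69.1% and 7.08% of cGAMP-treated ECs.

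Esm1, Apln and Igfbp3 carried the score. Esm1 stood at 1176 CPM in selected and 198 CPM in other PBS-treated ECs, and at 1096 and 125 CPM under cGAMP. Apln was at 1294 and 330 CPM under PBS and at 1380 and 250 CPM under cGAMP. Igfbp3, a secreted binding protein of insulin-like growth factors, was the most abundant of the 6, at 4417 and 2259 CPM under PBS and 5117 and 1819 CPM under cGAMP. A UMI of Igfbp3 was found in every selected EC, and of Esm1 and of Apln in 287 of 289 and 96 of 97. Among the other ECs, Igfbp3 was found in 92.7% under PBS and 87.5% under cGAMP. Apln was found in 67.2% and 57.7% of them and Esm1 in 55.0% and 41.9%. Mfap3l, a membrane protein gene, was at 76.2 and 12.5 CPM under PBS and at 65.1 and 6.40 CPM under cGAMP. Antxr1, the anthrax toxin receptor also known as tumour endothelial marker 8, was at 69.8 and 24.8 CPM under PBS and at 37.0 and 5.93 CPM under cGAMP. Its level in the selected cGAMP-treated ECs was thus the lowest of the 6.

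**Figure D2:**
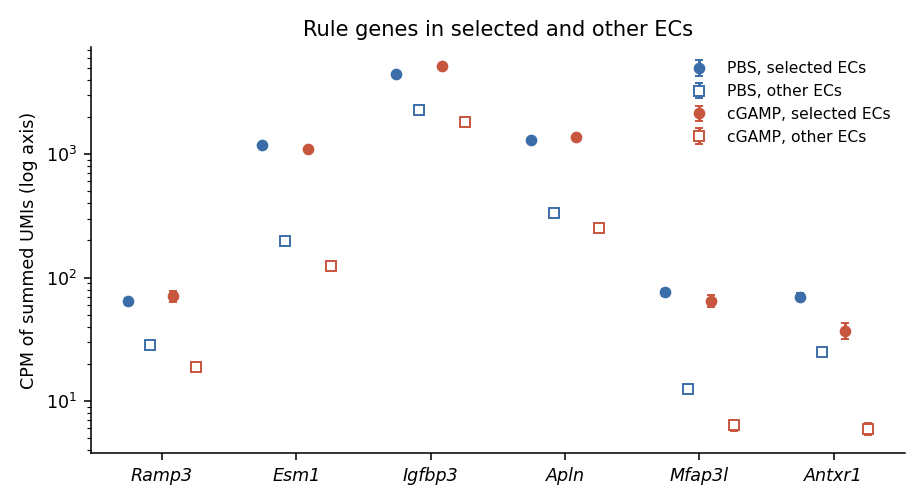
Levels of the 6 genes of the selection rule in selected (filled circles) and other ECs (open squares), as CPM of summed UMIs on a log axis, with exact Poisson 95% intervals for counting error. All 6 were higher in the selected ECs of both libraries, which the selection itself brings about.

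Ramp3, which modifies the receptor for adrenomedullin, added little to the selection and did not behave like the other 5 genes. It made up 2.74% of the difference in score between selected and other ECs under PBS and 3.36% under cGAMP. A UMI of Ramp3 was found in 119 of the 289 selected PBS-treated ECs, 41.2% (35.4 to 47.1), and in 46 of the 97 selected cGAMP-treated ECs, 47.4% (37.2 to 57.8). When each gene in turn was left out of the score and read in the cells that the other 5 genes chose, the 5 genes other than Ramp3 were higher in the chosen ECs of both libraries, by 0.69 (Igfbp3) to 2.19 (Mfap3l) log2 units under PBS and by 1.13 (Igfbp3) to 3.13 (Mfap3l) under cGAMP. Ramp3 was lower in the chosen PBS-treated ECs, at 21.4 against 35.5 CPM (log2 ratio -0.73, -0.92 to -0.55), and higher in the chosen cGAMP-treated ECs, at 43.1 against 21.1 CPM (1.03, 0.82 to 1.24). The name of the cells by Ramp3 therefore went against the PBS data, and they are called selected ECs here, with Esm1, Apln and Igfbp3 as their leading genes. On GRCm38 Esm1 lies on chromosome 13 (113209659 to 113218098), Apln on chromosome X (48025146 to 48034853), Igfbp3 on chromosome 11 (7206086 to 7213923) and Ramp3 on chromosome 11 (6658521 to 6677475), all protein-coding genes.

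Ramp3 was unevenly spread among the selected ECs when these were divided by markers outside the rule. As a comparison, the 386 ECs with the highest mean ln values of the hypoxic tip markers Ankrd1, Adm, Pgf, Ankrd37 and Bnip3, and the 386 with the highest values of the tip markers Gal, Cxcr4, Chst1 and Chga, were taken in the same way. The hypoxic set shared 165 ECs with the selected ECs, 42.7% of each, and the Gal and Chga set shared 89, 23.1% of each. The hypoxic set took 45.7% of selected and 6.69% of other PBS-treated ECs, and 34.0% and 5.79% of cGAMP-treated ECs. The Gal and Chga set took 24.2% of selected and 10.3% of other PBS-treated ECs, and 19.6% and 5.39% of cGAMP-treated ECs. Of the selected ECs, 196 were in neither set, 137 of them PBS-treated and 59 cGAMP-treated. Ramp3 stood at 115 CPM in those PBS-treated ECs and at 103 CPM in those cGAMP-treated ECs. In the 50 PBS-treated and 14 cGAMP-treated ECs that belonged to both sets it was at 3.29 and 6.17 CPM, and in the 82 and 19 that were only in the hypoxic set at 29.8 and 17.1 CPM. Ramp3 was thus highest in the ECs of neither set, where Pgf was at 109 and 153 CPM, against 1695 and 1133 CPM in those of both sets. Esm1 did not follow this split, with 1106 and 1078 CPM in the ECs of neither set and 1053 and 1354 CPM in those of both. Igfbp3 was at 4952 and 5541 CPM in the ECs of neither set and at 3781 and 4019 CPM in those of both. Apln was at 1002 and 1120 CPM in the ECs of neither set and at 1784 and 1713 CPM in those of both. All of these ECs had passed a cut on a score that holds Ramp3, Apln and Igfbp3. The part of that cut in the split was not tested.

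No selected EC was among the 386 with the highest venous stalk-like markers, where the exact binomial interval of a count of 0 reaches 1.27% of selected PBS-treated and 3.73% of selected cGAMP-treated ECs. Among the other ECs the venous set took 7.54% under PBS and 17.5% under cGAMP. The arterial set shared 5 ECs with the selected ECs, 1.30% of each. It took 1.38% of selected and 11.9% of other PBS-treated ECs, and 1.03% and 9.33% of cGAMP-treated ECs.

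Across 9300 genes with a mean of at least 5 CPM over all ECs, 57 (0.613%) were 2-fold or more higher and 211 (2.27%) were 2-fold or more lower in the selected ECs of both libraries. Most ECs behind that mean were other ECs. A gene high only in the other ECs could therefore pass, and a gene high only in the selected ECs could fail. The counts of higher and lower genes are thus not to be set against each other. Median log2 ratios over all genes were -0.08 under PBS and -0.05 under cGAMP. Of 21 tip cell genes, 6 were 2-fold higher in both libraries and none was 2-fold lower, with list medians of 0.79 and 1.01. This list holds genes that the study itself took as tip cell markers from these libraries, so it is not independent evidence of its direction. Adm, the vasodilator peptide adrenomedullin, was at 667 CPM in selected and 144 CPM in other PBS-treated ECs and at 661 and 135 CPM under cGAMP. Pgf, placental growth factor, was at 688 and 166 CPM under PBS and at 504 and 119 CPM under cGAMP. Fn1, the matrix protein fibronectin, was at 632 and 149 CPM under PBS and at 290 and 40.6 CPM under cGAMP. All 3 were higher in the selected ECs of both libraries, with log2 ratios from 2.05 to 2.84, and each was found in 72.2% to 94.8% of the selected ECs of either library.

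Other ligands and receptors of sprouting varied in how far they stood apart. Angpt2, the antagonist of the angiopoietin receptor Tek, was at 934 and 291 CPM under PBS and at 1047 and 518 CPM under cGAMP. Cxcr4, the chemokine receptor of tip cells, was at 168 and 71.5 CPM under PBS and at 117 and 33.2 CPM under cGAMP. Its ligand Cxcl12 was also higher, at 191 and 91.0 CPM under PBS and at 306 and 115 CPM under cGAMP, although it had been listed as an arterial gene. In the selected ECs of neither tip set Cxcl12 was at 74.2 CPM under PBS, below the other ECs, and at 231 CPM under cGAMP. Ackr3, a scavenger receptor of Cxcl12 and adrenomedullin, was at 106 and 53.0 CPM under PBS and at 156 and 56.2 CPM under cGAMP. The Notch ligand Dll4 was at 225 and 151 CPM under PBS and at 233 and 145 CPM under cGAMP, less than 2-fold higher. Aplnr, the apelin receptor, went the other way from its ligand, with 34.2 and 191 CPM under PBS and 26.9 and 202 CPM under cGAMP, a log2 ratio of -2.48 (-2.62 to -2.34) and -2.91 (-3.16 to -2.67). The receptor Kdr had log2 ratios of -0.27 and -0.20, Flt1 of 0.04 and -0.03 and Nrp1 of -0.08 and -0.02. Of the 11 tested genes of vascular endothelial growth factor and angiopoietin signalling, Pgf and Angpt2 were 2-fold higher in both libraries and none was 2-fold lower.

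Hypoxia and glycolysis genes were higher by smaller amounts. Of 20 tested, 17 were above 0 in both libraries, with medians of 0.61 and 0.49, and 2 of them, Egln3 and Ankrd37, were 2-fold higher in both. The medians over all genes were -0.08 and -0.05, and how many of all genes were above 0 in both libraries was not counted. Egln3, the oxygen-dependent prolyl hydroxylase that marks hypoxia-inducible factors for destruction, was at 78.2 and 16.9 CPM under PBS and at 16.2 and 4.61 CPM under cGAMP. In the selected ECs of neither tip set Egln3 was at 17.9 CPM under PBS, near the other ECs, and at 9.55 CPM under cGAMP. Ankrd37 was at 264 and 86.0 CPM under PBS and at 204 and 44.6 CPM under cGAMP. Slc2a1, the glucose transporter, was 2-fold higher only under PBS, with 168 against 66.4 CPM, and stood at 89.6 against 61.1 CPM under cGAMP. The glycolytic enzymes Gapdh, Pgk1, Eno1, Aldoa and Pkm had log2 ratios of 0.35 to 0.88 in the 2 libraries. Ddit4, a stress-induced inhibitor of growth signalling, was lower, at 36.8 and 74.4 CPM under PBS and at 45.1 and 81.8 CPM under cGAMP.

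Among the 12 genes with the largest ratio in both libraries were also Ankrd1, Gkn1, Fhl2, Sgms2 and Nnmt. Ankrd1, a mechanosensitive nuclear protein and target of YAP, was at 22.1 and 4.40 CPM under PBS and at 30.1 and 4.99 CPM under cGAMP, but 1 cell held 66.4% of its UMIs in the selected cGAMP-treated ECs. Without the cell with the most UMIs in each group, it was at 16.5 and 3.44 CPM under PBS and at 10.2 and 3.09 CPM under cGAMP. With Apln or Esm1 left out of the score, the weaker of its 2 log2 ratios was 0.69 or 0.58, against 2.33 as selected, so that it was no longer 2-fold higher in both libraries. Fhl2, a LIM domain protein, was more evenly spread, at 80.5 and 22.8 CPM under PBS and at 77.9 and 18.0 CPM under cGAMP. Gkn1 was at 68.0 and 17.5 CPM under PBS and at 19.6 and 2.95 CPM under cGAMP. In the transforming growth factor list, Tgfb2 was higher, with 34.6 and 11.9 CPM under PBS and 27.9 and 4.82 CPM under cGAMP, and Smad6, an inhibitor of this signalling, was lower, with 2.62 and 7.99 CPM under PBS and 0.989 and 9.55 CPM under cGAMP. Of the 18 basement membrane and matrix genes, Fn1 was the 1 gene that was 2-fold higher in both libraries, with list medians of 0.22 and 0.42. Neither the 22 apoptosis genes nor the 21 NF-kB and AP-1 genes held one that was 2-fold higher in both libraries, and Tnfsf10, a death receptor ligand, was the 1 gene of them 2-fold lower in both. By smaller amounts, 19 of the 21 NF-kB and AP-1 genes were below 0 in both libraries and 1 was above 0 in both. Their medians were -0.30 and -0.40, against -0.08 and -0.05 over all genes. Of the apoptosis genes, 9 were below and 8 above 0 in both.

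The bases before the start of 3 named genes are given to show their regulatory sequence beside the values, in RefSeq windows on GRCm38.p6 with matches in capitals. Searched were ACGTG, a core of the hypoxia response element, GGAATG, the motif of the TEAD factors that work with YAP, and 2 copies of GAAA that lie 2 bases apart, a core of the interferon response element, on both strands of the 250 bases before each start. Egln3 and Ankrd1 are shown from the genes higher in the selected ECs and Phf11b from those higher under cGAMP, all on the minus strand, at chr12:54203875-54204124, chr19:36119845-36120094 and chr14:59341331-59341580.
Egln3: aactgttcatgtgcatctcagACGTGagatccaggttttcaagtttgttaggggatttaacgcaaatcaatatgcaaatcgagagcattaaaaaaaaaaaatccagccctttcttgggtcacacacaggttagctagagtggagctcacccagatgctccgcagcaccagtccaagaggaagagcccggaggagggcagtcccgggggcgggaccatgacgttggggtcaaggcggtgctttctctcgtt
Ankrd1: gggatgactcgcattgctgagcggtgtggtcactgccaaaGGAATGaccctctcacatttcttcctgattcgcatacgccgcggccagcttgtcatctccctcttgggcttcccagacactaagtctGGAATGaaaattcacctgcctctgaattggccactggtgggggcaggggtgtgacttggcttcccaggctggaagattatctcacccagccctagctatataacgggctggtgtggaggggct
Phf11b: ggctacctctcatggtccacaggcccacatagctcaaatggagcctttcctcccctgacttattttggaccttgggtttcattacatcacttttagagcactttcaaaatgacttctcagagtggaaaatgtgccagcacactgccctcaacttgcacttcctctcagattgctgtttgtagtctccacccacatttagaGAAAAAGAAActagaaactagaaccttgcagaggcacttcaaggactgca
A window was held for 7 of the 9 named genes higher in the selected ECs that were not in the rule, and for 5 of the 8 higher under cGAMP. ACGTG was found for Egln3, Fhl2 and Sgms2 of those 7 genes and for 18.5% of all 27025 genes with a window. It was found for 0 of the 5 rule genes with a window and for 2 of the 8 genes lower under cGAMP, Ccnb2 and Cenpa. GGAATG was found for Ankrd1 of those 7 and for 14.4% of all genes, and the paired GAAA for Phf11b of those 5 and for 3.46% of all genes. GGAATG was also found for Ramp3 of the rule genes and Ube2c of the genes lower under cGAMP. Some genes, Sgms2 and Fhl2 among them, have several windows and count once if any of them held the letters. A part of these letters in the levels was not tested.

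**Figure D3:**
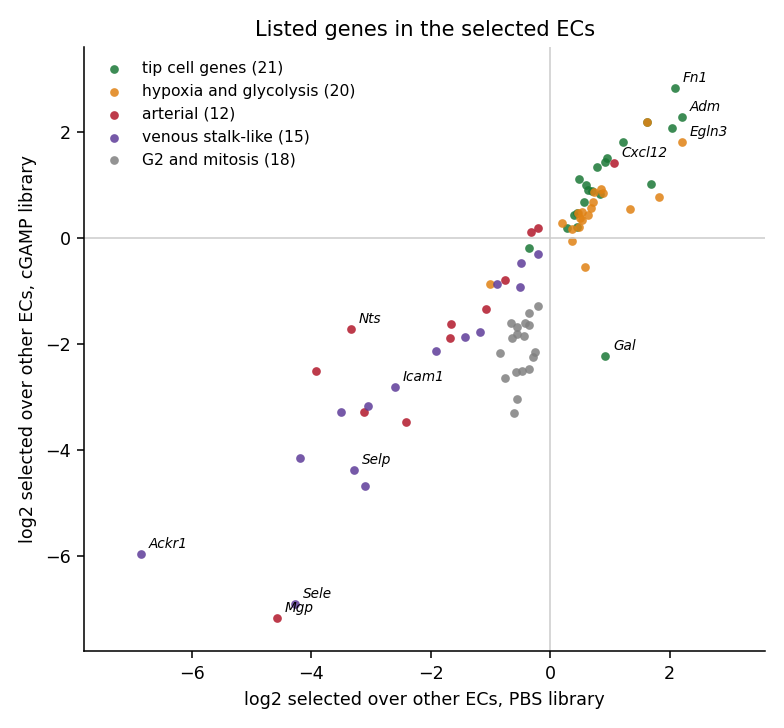
Log2 ratio of the CPM in selected over other ECs for the tested genes of 5 lists, with the PBS library on the x axis and the cGAMP library on the y axis. Tip cell and hypoxia genes lie mostly at the upper right, venous and most arterial genes at the lower left, and the 18 mitosis genes are further below 0 in the cGAMP library than in the PBS library.

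Venous stalk-like genes were lower in the selected ECs. All 15 listed were lower in both libraries, 11 of them 2-fold or more in both. The list medians were -2.59 and -2.80, against -0.08 and -0.05 over all genes. This list holds Selp, which the study took as a stalk-like marker with these libraries, so its direction is not independent evidence either. Ackr1, the atypical chemokine receptor of venules, was at 0.396 CPM in selected and 45.7 CPM in other PBS-treated ECs and at 2.97 and 186 CPM under cGAMP. After each cell was thinned to 5000 UMIs, a UMI of Ackr1 was found in 0.352% of selected and 10.9% of other PBS-treated ECs, and in 3.16% and 28.4% of cGAMP-treated ECs. The share was 81.8% and 89.4% in the venous set. Unthinned shares were 1.76% and 19.0% under PBS and 10.5% and 45.6% under cGAMP. Thinning left out 5 selected and 65 other PBS-treated ECs and 2 selected and 11 other cGAMP-treated ECs that had fewer UMIs.

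The leucocyte adhesion genes followed Ackr1. Selp, or P-selectin, was at 20.4 and 198 CPM under PBS and at 18.0 and 373 CPM under cGAMP. Icam1, the ligand of leucocyte integrins, was at 26.5 and 160 CPM under PBS and at 30.7 and 214 CPM under cGAMP. Sele, or E-selectin, was at 0.793 and 15.4 CPM under PBS and at 0.198 and 23.8 CPM under cGAMP, where the selected ECs held 1 UMI. Vcam1 differed less, with 33.8 and 47.2 CPM under PBS and 57.4 and 79.0 CPM under cGAMP. Of the 13 tested chemokine, cytokine and adhesion genes, 7 were 2-fold lower in both libraries, namely Cxcl9, Cxcl10, Csf3, Il6, Icam1, Sele and Selp. The exception in direction was Ccl2, a monocyte chemokine, with 253 and 193 CPM under PBS and 573 and 221 CPM under cGAMP. In the selected ECs of neither tip set Ccl2 was at 119 CPM under PBS, below the other ECs, and at 393 CPM under cGAMP.

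Arterial genes were lower too, though not when Apln was left out of the score. Of 12 tested, 8 were 2-fold lower in both libraries, with medians of -1.67 in each, and Cxcl12 was higher. Mgp was at 1.51 and 35.7 CPM under PBS and at 0.396 and 57.2 CPM under cGAMP, the selected cGAMP-treated level resting on 2 UMIs. Gja4, a gap junction protein of arterial ECs, was at 10.9 and 58.5 CPM under PBS and at 2.18 and 24.2 CPM under cGAMP. In ECs chosen without Apln, 1 arterial gene was 2-fold lower in both libraries and the medians were -0.03 under PBS and 0.45 under cGAMP. Of the venous list, 9 to 12 genes were 2-fold lower in both libraries under the 19 alternatives, the score without Apln included. The capillary genes Car4 and Cd36 were also 2-fold lower in both libraries, with Car4 at 5.07 and 38.5 CPM under PBS and at 11.1 and 159 CPM under cGAMP.

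The 8 genes with the smallest ratios were Ackr1, Mgp, Ubd, Serpina3g, Serpina3f, Gm4841, Cmah and Ctnnal1. The filter on the mean over all ECs lets such genes pass through their level in the other ECs, so their place at this end is partly set by it. Ubd, a ubiquitin-like protein, was at 0.713 and 23.9 CPM under PBS and at 7.91 and 443 CPM under cGAMP, where 1 cell held 67.5% of the UMIs in the selected ECs. Serpina3g, Serpina3f and Gm4841 had 1 or 2 UMIs in the selected ECs of each library, with log2 ratios of -4.34 to -5.93 that are loosely bounded, as for Serpina3f under PBS (-9.66 to -1.84). Cmah, which makes a form of sialic acid, was at 0.793 and 19.1 CPM under PBS and at 0.198 and 8.75 CPM under cGAMP. Ctnnal1, a catenin-like protein, was at 0.238 and 16.5 CPM under PBS and at 0.593 and 13.8 CPM under cGAMP.

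Levels differed along the whole score, not only at the cut. In deciles of the score, with the selected ECs as the highest, Adm went from 667 CPM in the selected PBS-treated ECs to 349 CPM in the second decile, 106 CPM in the fifth and 6.61 CPM in the last, and from 661 to 354, 192 and 7.50 CPM under cGAMP. Ackr1 was at 2.10 CPM in the second, 7.12 CPM in the fifth and 330 CPM in the last decile under PBS, and at 2.87, 18.6 and 715 CPM under cGAMP. The selected ECs thus had the highest Adm and Pgf and the lowest Ackr1 of the 10 deciles in the PBS library and the highest Adm and Pgf of the cGAMP library. Median depth ranged from 21572 to 36593 UMIs over the deciles under PBS, and from 33116 to 51993 under cGAMP, and its part in these steps was not tested.

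**Figure D4:**
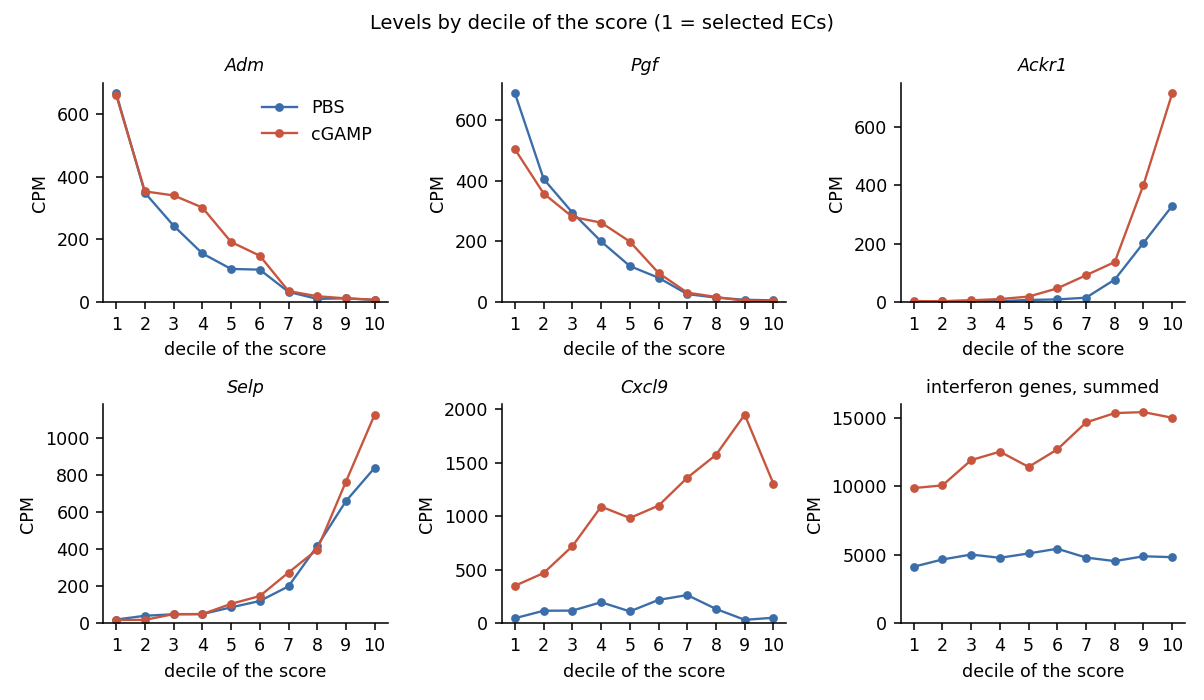
Levels (CPM of summed UMIs) of 5 genes and of the sum of 34 interferon-stimulated genes in deciles of the score, pooled over the libraries and plotted by library, with the selected ECs as decile 1. Adm and Pgf are highest in decile 1 of both libraries and Ackr1 is highest in decile 10, while the interferon sum lies between 4131 and 5444 CPM under PBS and between 9871 and 15417 CPM under cGAMP.

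Selected ECs made up a smaller share of the cGAMP library. The difference was -4.24 percentage points, from 11.5% to 7.24%, a ratio of 0.63 (0.496 to 0.796 from counting error alone). The ratio was 0.522 to 0.685 under the 13 other ways of scoring or choosing cells that were tried. The hypoxic set, chosen in the same way, took 11.2% and 7.84%, the Gal and Chga set 11.9% and 6.42%, and the venous set 6.67% and 16.3% of the PBS and cGAMP libraries. The share of selected ECs that were also in the hypoxic set was 45.7% (39.8 to 51.6) under PBS and 34.0% (24.7 to 44.3) under cGAMP. Shares of 1 library sum to a whole, so fewer selected ECs and more ECs of other kinds cannot be told apart.

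Inside the selected ECs, 137 of 9300 genes (1.47%) were 2-fold or more higher and 213 (2.29%) 2-fold or more lower in the cGAMP library. In the other ECs 153 (1.65%) were higher and 162 (1.74%) lower. Median log2 ratios over all genes were -0.04 in selected and -0.08 in other ECs. Interferon-stimulated genes were higher in both, and less so in the selected ECs. Of 34 tested, 14 were 2-fold higher in selected and 22 in other ECs, and none was 2-fold lower in either. The list median was 0.86 in selected and 1.37 in other ECs, and 32 of the 34 had the smaller ratio in the selected ECs, against 4235 of 9300 over all genes. With other choices of scaling, filter or cells, 7 (score without Apln) to 21 (score without Igfbp3) were 2-fold higher in selected ECs and 23 (score without Igfbp3) to 34 had the smaller ratio. Their summed level was 4131 CPM in selected and 4901 CPM in other PBS-treated ECs, and 9871 and 13489 CPM under cGAMP.

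The size of the difference between selected and other ECs varied among the interferon genes. Irf7, the transcription factor that amplifies interferon production, went from 82.2 to 520 CPM in selected and from 82.8 to 663 CPM in other ECs. Isg15, the ubiquitin-like modifier, went from 255 to 663 CPM and from 245 to 827 CPM. Zbp1, a sensor of nucleic acids, went from 23.9 to 112 CPM and from 24.0 to 146 CPM. For these 3 genes the log2 ratio was lower in the selected ECs, with differences of -0.34 (Irf7), -0.37 (Isg15) and -0.38 (Zbp1). The differences furthest below 0 among the 34 genes were those of Gbp5, Iigp1, Gbp2 and Gbp4, guanylate-binding proteins and an immunity-related GTPase. Gbp2 went from 37.7 to 57.4 CPM in selected and from 73.4 to 207 CPM in other ECs. Gbp5 was at 8.56 and 6.73 CPM in selected ECs, a log2 ratio of -0.35 (-0.95 to 0.22), and went from 19.8 to 52.6 CPM in other ECs. Iigp1 went from 81.8 to 103 CPM in selected and from 150 to 413 CPM in other ECs, log2 ratios of 0.33 (0.17 to 0.48) and 1.46. Both Gbp4 and Gbp5 were also 2-fold lower in selected than in other ECs in each library. Oasl1 and Rtp4 were the 2 genes with the larger ratio in the selected ECs, Rtp4 with 1.77 against 1.55.

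Antigen presentation genes followed the same course. Of 13 tested, 6 were 2-fold higher under cGAMP in selected and 10 in other ECs, with medians of 0.93 and 1.36, and 12 had the smaller ratio in the selected ECs, Cd74 being the exception. H2-Ab1, a class II chain, was the 1 gene 2-fold lower in selected ECs, at 5.15 and 2.37 CPM, the latter from 12 UMIs. H2-K1, a class I heavy chain, went from 1011 to 2592 CPM in selected and from 1159 to 3508 CPM in other ECs. B2m, its light chain, went from 1260 to 3000.3 CPM and from 1254 to 3298 CPM. Psmb8, an immunoproteasome subunit, went from 212 to 400.2 CPM and from 249 to 640.3 CPM. Cd74, the class II invariant chain, was scarce in the selected ECs, at 0.713 and 5.93 CPM, and went from 7.97 to 37.5 CPM in other ECs.

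**Figure D5:**
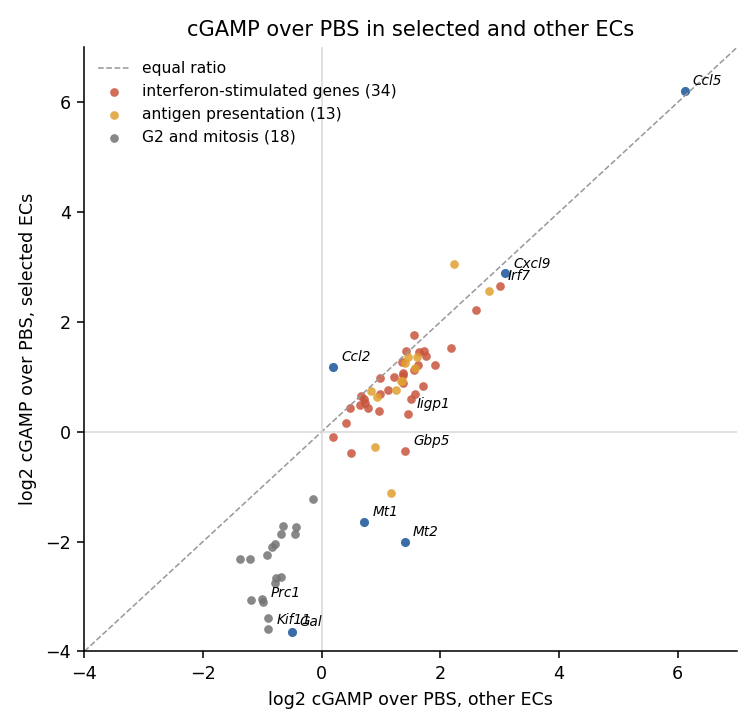
Log2 ratio of cGAMP over PBS in the other ECs (x axis) and in the selected ECs (y axis) for the tested genes of 3 lists, with 6 further named genes in blue, and a dashed line where both are equal. Most interferon and antigen presentation genes lie below the line, all 18 mitosis genes lie below it, and Ccl2 lies above it.

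The other sets, chosen in the same way, differed in this median. In the Gal and Chga set the median over the same 34 genes was 0.87, in the hypoxic set 1.51, in the arterial set 1.12, in the venous set 1.72, in the S phase set 1.15 and in the mitosis set 1.34. Selected ECs outside both tip sets had a summed interferon level of 4012 CPM under PBS and 9269 CPM under cGAMP. Over the deciles of the score the sum lay between 4131 and 5444 CPM under PBS without a steady direction, and between 9871 CPM in the selected and 15417 CPM in the ninth decile under cGAMP. The median difference between selected and other ECs depended on the score. It was -0.33 as selected, -0.09 when Igfbp3 was left out of the score and -0.80 when Apln was left out, and stayed below 0 under each of the 19 alternatives.

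Chemokines differed in how they moved with cGAMP. Ccl5, the T cell attractant, was the highest of all by ratio, from 4.28 to 315 CPM in selected and from 6.82 to 474 CPM in other ECs. A single PBS-treated cell held 94.4% of the Ccl5 UMIs of its group, and without the cell with the most UMIs in each group the selected ECs went from 0.240 to 224 CPM. Cxcl9, which attracts T cells through Cxcr3, went from 47.6 to 351 CPM in selected and from 143 to 1220 CPM in other ECs. Cxcl10 went from 37.3 to 55.8 CPM and from 101 to 261 CPM, log2 ratios of 0.58 (0.36 to 0.80) and 1.36. Ccl2 had the larger ratio in the selected ECs, from 253 to 573 CPM in selected and from 193 to 221 CPM in other ECs, log2 ratios of 1.18 (1.11 to 1.25) and 0.19. The 5 cells with the most Ccl2 held 66.2% of its UMIs in the selected cGAMP-treated ECs. Among the selected ECs, Ccl2 under cGAMP was at 1003 CPM in those only in the hypoxic set, at 942 CPM in those of both tip sets and at 393 CPM in those of neither.

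Other genes among the 8 highest by ratio were Serping1, the inhibitor of complement C1, from 1.90 to 46.3 CPM in selected and from 7.15 to 202 CPM in other ECs, and Phf11b, from 5.15 to 44.5 CPM and from 8.09 to 62.0 CPM. Tpm3-rs7, a copy related to Tpm3 whose reads may be divided between them, went from 14.0 to 132 CPM and from 14.8 to 113 CPM. The haemoglobin genes Hbb-bt, Hba-a1 and Hba-a2 completed the 8, and each owed at least 99.6% of its UMIs in selected cGAMP-treated ECs to 1 cell. Without the cell with the most UMIs in each group, Hba-a2 was at 0 CPM in selected PBS-treated and 0.200 CPM in selected cGAMP-treated ECs.

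Mitosis genes were lower under cGAMP, and more so in the selected ECs. All 18 were 2-fold or more lower in the selected ECs, with a median of -2.32, and 4 were in the other ECs, with a median of -0.82. Each of the 18 had the lower ratio in the selected ECs. Prc1, which bundles microtubules of the spindle midzone, went from 73.5 to 8.51 CPM in selected and from 93.6 to 47.1 CPM in other ECs. Mki67, the proliferation marker, went from 86.6 to 17.4 CPM and from 128 to 55.4 CPM. Ube2c, a ubiquitin-conjugating enzyme of the anaphase-promoting complex, went from 151 to 22.4 CPM and from 183 to 106 CPM. Cenpf, Cenpa, Cenpe and Ccnb2, which act at the kinetochore or drive entry into mitosis, made up the rest of the 8 genes with the lowest ratio, together with Gal. These levels rested on few cells, and 1 cell held 58.1% of the Cenpa UMIs and 57.9% of the Ccnb2 UMIs of the selected cGAMP-treated ECs. The ratios in selected ECs also depended on the choice of cells. With the top 10% of each library they went from -3.06 to -1.38 for Cenpf and from -2.74 to -1.25 for Cenpa. Those of Cenpe went from -2.44 to -1.07 and those of Ccnb2 from -2.32 to -1.32. Under the 19 alternatives, 14 to 18 mitosis genes were 2-fold lower in selected ECs.

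The number of ECs with high mitosis markers was read as well. Of the 386 ECs with the highest mitosis markers, 21 were selected PBS-treated ECs, 7.27% (4.55 to 10.9) of that group against 12.9% of the other PBS-treated ECs. None was among the 97 selected cGAMP-treated ECs, with an exact binomial interval up to 3.73%, against 6.28% (4.99 to 7.77) of the other cGAMP-treated ECs. After thinning, a UMI of Mki67 was found in 15.1% and 22.1% of selected and other PBS-treated ECs and in 5.26% (1.73 to 11.9) and 11.8% (10.0 to 13.7) of cGAMP-treated ECs, and unthinned in 30.3%, 38.2%, 15.8% and 23.6%. S phase genes did not follow, with 1 of 17, Pclaf, 2-fold lower in selected ECs and medians of 0.07 in selected and 0.22 in other ECs.

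Gal, the neuropeptide galanin, was at 234 CPM in selected and 124 CPM in other PBS-treated ECs and at 18.6 and 87.1 CPM under cGAMP. Its log2 ratio of cGAMP over PBS was -3.65 (-3.97 to -3.36) in selected and -0.50 in other ECs. The choice of cells moved this value most, to -0.77 when the rule genes were scaled to unit variance and to -1.15 when the top 10% of each library were taken, and the difference between selected and other ECs to -0.08 with the scaled genes. Chga, chromogranin A, which was chosen with Gal as a marker, went from 240 to 345 CPM in selected ECs and was at 124 and 122 CPM in other ECs.

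Of the selected ECs' own leading genes, few differed 2-fold between the libraries. Esm1, Apln, Igfbp3, Ramp3 and Mfap3l had log2 ratios of cGAMP over PBS between -0.23 and 0.21 in the selected ECs, and Antxr1 was lower, at 69.8 and 37.0 CPM (-0.92, -1.15 to -0.69), against -2.06 in the other ECs. The cells were selected on these 6 genes in both libraries. Adm (-0.01, -0.07 to 0.05), Pdgfb (-0.02) and Dll4 (0.05) were close to equal. They took no part in the rule, but Adm fell with the score. It went from 667 CPM in selected to 6.61 CPM in last-decile PBS-treated ECs, and from 661 to 7.50 CPM under cGAMP. Like levels of Adm above a common cut are therefore not independent of the selection. Fn1 was 2-fold lower under cGAMP in selected ECs, at 632 and 290 CPM, and so were Egln3, at 78.2 and 16.2 CPM, Gkn1, at 68.0 and 19.6 CPM, and Bnip3, at 64.9 and 27.5 CPM. Fn1, Egln3 and Gkn1 were 2-fold lower in the other ECs too, and Bnip3 was not. Without the cell with the most UMIs in each group, log2 ratios in selected and other ECs were -1.10 and -1.90 for Fn1. They were -2.36 and -1.91 for Egln3 and -1.89 and -2.70 for Gkn1. Of the 20 hypoxia and glycolysis genes, 2 were 2-fold lower and none 2-fold higher, with a median of -0.37 in selected and -0.16 in other ECs. Of the 22 apoptosis genes none differed 2-fold in either direction, with medians of 0.04 and 0.07, and of the 21 NF-kB and AP-1 genes 1, Cebpb, was 2-fold higher, from 33.4 to 81.1 CPM in selected and from 41.1 to 135 CPM in other ECs.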

How the data were processed

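The deposited values were natural log values, ln(1 + UMIs per 10000 UMIs of the cell), that the authors made with Cell Ranger 3.0.0 (mm10) and Seurat 3.1.1 after removing poor cells and non-endothelial clusters, per the labels and methods. UMIs were recovered from them, and every value came out whole within 0.01. UMIs were summed per library and group of cells and scaled to CPM, with exact 95% Poisson, Clopper-Pearson or conditional binomial intervals. A sum of 0 was set to 3 UMIs per group in ratios. Genes with a mean of 5 CPM over all ECs were compared, and 2-fold was the limit for a call. With 1 library per condition no test was made, and PCR and cell-to-cell variation lie outside the intervals. No cell was removed as a doublet.

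Named were the rule genes, the genes of the lists and the extreme ratios. Among genes with a mean of at least 5 CPM over all ECs, 12 higher and 8 lower in selected ECs were taken by the weaker of both libraries. Among genes with a mean of at least 20 CPM in the selected ECs, 8 each way with cGAMP and 4 each way by difference were taken. The cells, lists and comparisons were chosen with earlier results of these data known. The calculation was tested on simulated counts. Python 3.11.15, numpy 2.4.6, scipy 1.17.1, pandas 2.3.3 and matplotlib 3.10.9 were used. The alternatives covered scaling, filters, the score and the cells taken.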

Additional observations from a re-analysis of the deposited data

Results flagged for a closer look

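Some named genes had opposite directions with cGAMP in selected and other ECs. The differences were not tested, since each condition had 1 library.

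The metallothioneins Mt1 and Mt2, which bind zinc and copper, were lower under cGAMP in selected and higher in other ECs. Mt2 went from 38.2 to 9.50 CPM in selected and from 20.1 to 52.9 CPM in other ECs, log2 ratios of -2.01 and 1.40. Mt1 went from 137 to 43.7 CPM and from 48.2 to 79.3 CPM, log2 ratios of -1.65 and 0.72. Without the cell with the most UMIs in each group, the ratios were -1.95 and 1.40 for Mt2 and -1.56 and 0.72 for Mt1. Within the selected ECs, Mt1 was highest in those only in the hypoxic set, at 288 CPM under PBS and 63.3 CPM under cGAMP.

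The haemoglobin genes went the other way, with log2 ratios in selected and other ECs of 3.73 and -5.92 for Hbb-bt, 3.66 and -2.96 for Hba-a1, 3.46 and -3.47 for Hba-a2 and 2.79 and -3.47 for Hbb-bs. A single selected cGAMP-treated cell held 4338 of the 4345 erythroid UMIs of its group. Without the cell with the most UMIs in each group the ratios in selected ECs were 2.91, 0.74, -0.26 and 1.33 in that order. They came from at most 0.801 CPM in either library. For Hbb-bt and Hba-a2 the sign came from setting a sum of 0 to 3 UMIs. Hbb-bt was then at 0.0798 CPM under PBS and 0 CPM under cGAMP, and Hba-a2 at 0 and 0.200 CPM.

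Apln had a log2 ratio of cGAMP over PBS of 0.092 in selected and -0.40 in other ECs. The cells were selected on Apln, so this difference is a description of the selection.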

How the results depend on the processing

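No paired analysis was possible because each group has 1 library and the libraries share no replicate. The share of selected ECs moved by less than its counting interval. The genes 2-fold higher in both libraries numbered 57, against 100 with a minimum mean of 1 CPM, 25 with 20 CPM, 88 with the mean of per-cell CPM and 35 with a score without Esm1. Those 2-fold lower in both numbered 211, against 404 with 1 CPM and 88 with 20 CPM. With cGAMP, genes 2-fold higher in selected ECs numbered 137, against 347 and 70, and genes 2-fold lower 213, against 523 and 73, with 1 and 20 CPM. Lower minimums test more genes and higher ones fewer. The arterial median under cGAMP turned to 0.45 when Apln was left out of the score, and the cause was not tested. With the score on thinned cells, haemoglobin log2 ratios of cGAMP over PBS in selected ECs turned, to -4.21 for Hba-a1, -6.31 for Hba-a2 and -3.62 for Hbb-bt, and their differences from other ECs to -4.22 for Hba-a1, -6.24 for Hba-a2, -2.81 for Hbb-bt and -6.86 for Hbb-bs. Hba-a2 was at -0.26 without the cell with the most UMIs, a value set by the 3 UMIs that stood for its sum of 0 under PBS. The median difference of the mitosis list ranged from -1.96 with the top 5% of cells to -0.47 with the top 20%. Of the other values recomputed, 871 moved little and 318 moved. The 871 include ratios of single genes under other CPM minimums, which change only the genes tested and so could not move them. Leaving out the cell with the most UMIs of a gene, the cell with the most erythroid UMIs or the Gal and Chga set was chosen after seeing the data. With 97 selected cGAMP-treated ECs, values of a few UMIs are loosely bounded.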

Other observations

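Some lists held few genes that stood apart in the selected ECs. Of 11 Notch genes, Dll1 and Lfng were 2-fold lower in both libraries and none was 2-fold higher. Of 6 genes of the insulin-like growth factor system outside the rule, Igfbp5 was 2-fold lower in both, with 94.6% of its selected cGAMP-treated UMIs in 1 cell. The 17 S phase genes had medians of -0.34 under PBS and -0.54 under cGAMP, and none differed 2-fold in both libraries. The 4 lymphatic genes in the files summed to 17.8 CPM in selected and 17.7 CPM in other PBS-treated ECs and to 72.8 and 42.5 CPM under cGAMP, with Prox1, the lymphatic transcription factor, at 0 in selected PBS-treated ECs.

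Cxcl12 differed among the selected ECs. It stood at 368 CPM under PBS and 669 CPM under cGAMP in those only in the hypoxic set, against 74.2 and 231 CPM in those of neither tip set.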
